A study of Mus musculus with 6 samples.

Results

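The genes described here are 10 mouse genes of immune recognition: the checkpoint receptor gene Pdcd1 and its ligand genes Cd274 and Pdcd1lg2, the leukocyte surface gene Cd52, the endotoxin receptor genes Cd14, Ly96 and Tlr4, the Toll-like receptor genes Tlr2 and Tlr3, and the adaptor gene Myd88. They were 10 of 18193 genes with a probe set of their own on the array, and 14 of 45037 probe sets. A probe set was taken as a member where the platform's annotation gave it one of these symbols and no other. The genes were chosen by their log2 values in these same arrays, so their levels and differences are a description, and no test of a member is offered as support for anything.

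Toll-like receptors bind microbial molecules or molecules released by damaged tissue, and most of them pass the signal through the adaptor MyD88 to the transcription factor NF-kappa-B and to genes of inflammation. PD-1, the product of Pdcd1, is best known on activated T cells, where its ligands PD-L1 and PD-L2 restrain the response. Cumulus cells are the granulosa cells around the oocyte, and their expansion around ovulation, with hyaluronan, prostaglandin and cytokine synthesis, shares genes with inflammation.

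Each of the 6 samples was a pool of cumulus-oocyte complexes, that is oocytes with their cumulus, measured on an Affymetrix mouse array, with 2 arrays in each of 3 groups. All mice were immature females given equine chorionic gonadotropin (eCG), which makes follicles grow, for 48 h, so the controls carried this treatment too. The first group received no human chorionic gonadotropin (hCG, the trigger of ovulation), and the others were collected 8 h or 16 h after this hormone. The labels name no strain, genotype or exact age and do not state whether a group's arrays stem from different animals, so each p-value reflects the spread among these samples alone, which may be technical. The comparisons are called the early interval (8 h against no hCG), the late interval (16 h against 8 h) and the whole course (16 h against no hCG). By the labels' protocols, the complexes without hCG were punctured out of ovaries, where they are called expanded, and those of both hCG groups came from the oviduct. Place of collection and hormone therefore cannot be told apart in the comparisons with the untreated group. The 8 h site is in doubt because 8 h is early for ovulation. If those complexes came from the ovary, place and time cannot be told apart in the late interval either. A pool holds oocytes and cumulus cells, and possibly cells carried over from the ovary or oviduct, so fewer cells of a type and less RNA per cell cannot be told apart.

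Array medians lay between 6.14 and 6.27 on the log2 scale. Across probe sets, which are no replicates of each other, Pearson's r was 0.991, 0.996 and 0.995 within the groups and from 0.943 to 0.978 across them. No detection calls were used, so the distance of a low value from background is unknown and a fold change from a low value may be understated. The number of arrays limits the precision of every value below.

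Genes were compared with limma over all 6 arrays, and a gene was called where its adjusted p (Benjamini-Hochberg over 27022 probe sets) was under 0.05. A probe set with a mean under 5.62, the 40th percentile, was too dim to be tested. Of the 10 genes, 9 passed this limit and every one of their arrays lay above it, while Pdcd1lg2 did not pass. In the early interval, 5 of the 9 were called higher and 0 lower, with 5 and 1 at an unadjusted p under 0.05, where limma called 37.4% of 13559 genes, 16.9% higher and 20.5% lower. In the late interval, 4 were called higher and 0 lower, with 5 and 0 unadjusted, against 20.9% of all genes, 11.8% higher and 9.12% lower. At 16 h against no hCG, 6 were called higher and 0 lower, with 6 and 0 unadjusted, against 41.6% of all genes, 20.8% higher and 20.8% lower. The median difference of the 9 was 0.91, 0.46 and 1.08 in these comparisons in that order, and that of all genes was −0.022, 0.014 and −0.015. These counts follow from how the genes were chosen and are given for scale.

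**Figure D1:**
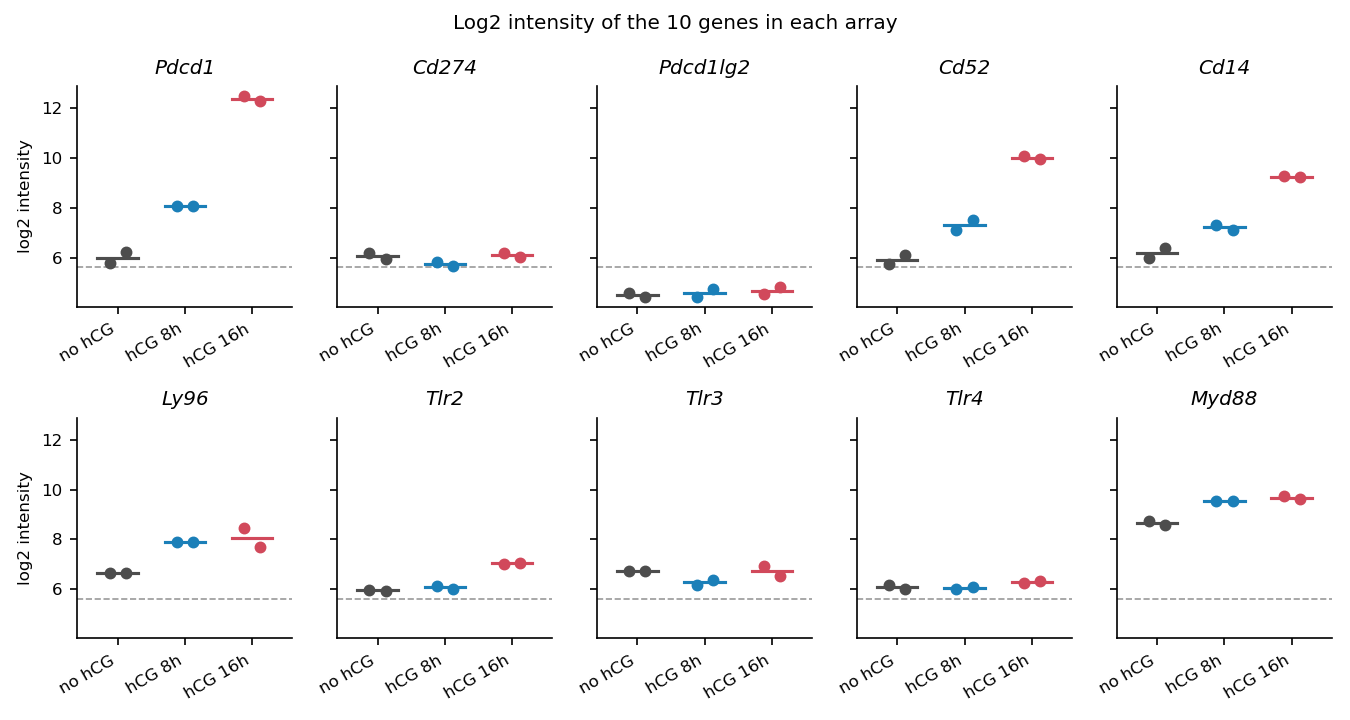
Log2 intensity (vertical axis) of the 10 genes in each array by group, with dots for arrays, bars for group means and a dashed line at the dim limit of 5.62. Pdcd1, Cd52 and Cd14 stood higher in each later group, Ly96 and Myd88 were higher in both hCG groups than without hCG, Tlr2 was higher at 16 h, and Cd274, Tlr3 and Tlr4 stayed between 5.68 and 6.92.

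Regions upstream of 3 genes that were higher after hCG are shown because the genes were called in different intervals: Pdcd1 in both, Tlr2 in the late one and Myd88 in the early one. Windows were read for 6 of the 10 genes from RefSeq's table on GRCm38.p6. The 250 bases before the start are given 5′ to 3′ on the gene's own strand, with motif matches in capitals. Pdcd1 was read from chr1:94052554-94052803 (minus strand), Tlr2 from chr3:83841609-83841858 (minus strand) and Myd88 from chr9:119340019-119340268 (minus strand).
Pdcd1: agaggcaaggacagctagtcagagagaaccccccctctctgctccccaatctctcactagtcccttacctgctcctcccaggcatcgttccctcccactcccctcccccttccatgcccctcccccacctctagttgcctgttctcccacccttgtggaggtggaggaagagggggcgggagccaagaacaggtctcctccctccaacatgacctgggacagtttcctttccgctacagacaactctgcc
Tlr2: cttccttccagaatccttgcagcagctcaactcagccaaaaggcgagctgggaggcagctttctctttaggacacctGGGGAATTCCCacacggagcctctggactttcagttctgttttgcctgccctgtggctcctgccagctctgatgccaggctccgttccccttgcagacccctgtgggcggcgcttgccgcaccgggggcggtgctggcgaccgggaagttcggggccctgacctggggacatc
Myd88: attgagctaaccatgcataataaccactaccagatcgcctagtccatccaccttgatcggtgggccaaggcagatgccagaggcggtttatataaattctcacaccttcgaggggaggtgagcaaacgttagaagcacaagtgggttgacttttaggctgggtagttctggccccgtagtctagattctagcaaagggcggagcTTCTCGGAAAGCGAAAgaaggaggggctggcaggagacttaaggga

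The motifs searched, on both strands, were the NF-kappa-B consensus, the interferon-stimulated response element (ISRE), the GAS element of STAT factors (TTCNNNGAA), AP-1 (TGANTCA), the cyclic AMP response element (CRE, TGACGTCA) and the RUNX core (TGTGGT). Over 32851 promoter windows of the same length they were present in 7.25%, 2.98%, 7.02%, 6.75%, 1.55% and 14% in that order. The window of Pdcd1 held none of the 6 and had a GC content of 60.4%, against a median of 52.4% over all windows. That of Tlr2 held a pair of overlapping NF-kappa-B matches, GGGGAATTCC at −173 to −164 and GGGAATTCCC at −172 to −163 from the start. In Myd88 a GAS match, TTCTCGGAA at −46 to −38, ran into an ISRE match, GAAAGCGAAA at −40 to −31. Among the tested genes not called, the window of Tlr3 held an NF-kappa-B match, GGGAGTTTCC at −211 to −202, and that of Cd274 held none of the 6. The window of Pdcd1lg2, which was too dim to be tested, held the NF-kappa-B match GGGGAATCCC at −244 to −235. A match describes letters in this window and says nothing about binding, and a window without a match says nothing about the factor.

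Pdcd1 (probe set 1449835_at) had the widest span of the 10 genes. It read 5.78 and 6.23 without hCG, 8.10 and 8.09 at 8 h, and 12.49 and 12.29 at 16 h. Each group stood clear of the one before it, and the arrays of a group lay within 0.45 of each other. The log2 difference was 2.09 ± 0.18 (SE) in the early interval, which is 4.25-fold, and 4.30 ± 0.18 in the late interval, which is 19.6-fold. Over the whole course it was 6.38 ± 0.18, or 83.5-fold (95% interval on the log2 scale 5.97 to 6.80). By size of increase Pdcd1 was 569th of 27022 probe sets in the early interval, 1st in the late interval and 6th over the whole course.

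Neither gene of its ligands was among those called. Cd274, which encodes PD-L1, read 6.17 and 5.96 without hCG, 5.85 and 5.68 at 8 h, and 6.19 and 6.05 at 16 h. The 8 h arrays lay just under the other 4, and the untreated and 16 h arrays overlapped. Its differences were −0.30 (95% interval −0.67 to 0.058) in the early interval, 0.36 (−0.0054 to 0.72) in the late interval and 0.052 (−0.31 to 0.41) over the whole course, and none was called. Pdcd1lg2, which encodes PD-L2, read 4.59 and 4.44, then 4.44 and 4.76, then 4.55 and 4.81. All 6 values were below the dim limit and the 3 groups overlapped, and the gene was not tested.

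Among 20 other genes of checkpoints and co-stimulation, a list chosen with earlier results of these data known, 19 had a named probe set and 10 were bright enough to test. For scale beside this and the later lists, 37.4% of all genes were called in the early interval. The shares were 20.9% in the late interval and 41.6% over the whole course. At 8 h, 1 was called higher and 2 lower (median difference −0.19). Cd47, the gene of the surface signal that blocks engulfment, rose by 2.05 ± 0.19. Cd200, the gene of a ligand that quiets myeloid cells, fell by 1.86 ± 0.19, and Cd160, the gene of a lymphocyte receptor, fell by 0.86 ± 0.16. In the late interval 2 were called higher and 2 lower (median 0.11). Here the galectin gene Lgals9 rose by 1.28 ± 0.27 and the B7 family gene Cd276 by 0.77 ± 0.16, while Icosl, the gene of the ligand of the T cell receptor ICOS, fell by 1.72 ± 0.21 and Cd200 by a further 0.92 ± 0.19. Over the whole course 2 were called higher and 3 lower (median 0.13). Each call of the early interval held with any single array left out, as did that of Icosl, while those of Lgals9, Cd276 and Cd200 in the late interval did not: without hCG 16h replicate 1, 0 were called higher there. The T cell checkpoint gene Ctla4 was dim, with group means of 5.23, 5.18 and 5.36.

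Cd52 (1460218_at) encodes a short peptide, anchored to the surface by a lipid, that is abundant on lymphocytes and also known from the epididymis. It read 5.76 and 6.09 without hCG, 7.10 and 7.50 at 8 h, and 10.07 and 9.95 at 16 h. The 3 groups were apart and in the same order as those of Pdcd1. The difference was 1.37 ± 0.19 in the early interval (2.59-fold), 2.71 ± 0.19 in the late interval (6.56-fold) and 4.09 ± 0.19 over the whole course (17.0-fold).

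Bacterial lipopolysaccharide, or endotoxin, is recognised through the products of 3 of the genes: CD14 takes it up, MD-2, encoded by Ly96, holds it, and TLR4 spans the membrane and signals. Cd14 (1417268_at) read 5.98 and 6.41 without hCG, 7.33 and 7.10 at 8 h, and 9.29 and 9.23 at 16 h, again in 3 groups that did not overlap. Its difference was 1.02 ± 0.18 in the early interval (2.03-fold), 2.04 ± 0.18 in the late interval (4.12-fold) and 3.07 ± 0.18 over the whole course (8.38-fold). Ly96 (1449874_at) was at 6.65 in both arrays without hCG, at 7.89 and 7.90 at 8 h, and at 8.46 and 7.68 at 16 h. Both hCG groups stood above the untreated arrays, but the 16 h arrays straddled those of 8 h. Its difference was 1.24 ± 0.23 in the early interval (2.37-fold), 0.17 ± 0.23 in the late interval, not called, and 1.42 ± 0.23 over the whole course (2.67-fold). The sign of the late difference of Ly96 rested on 1 array: without hCG 16h replicate 1 it was −0.22.

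Tlr4 itself, by its bright probe set 1418163_at, read 6.17 and 6.03 without hCG, 5.99 and 6.11 at 8 h, and 6.24 and 6.35 at 16 h. The 16 h arrays lay slightly above the other 4, which overlapped. Its differences were −0.050 (95% interval −0.39 to 0.30), 0.24 (−0.10 to 0.59) and 0.19 (−0.15 to 0.54) in the same order of comparisons, and none was called. The other 3 Tlr4 probe sets were dim. Their group means were 3.77, 3.70 and 4.22 for 1418162_at, 4.01, 4.06 and 3.99 for 1430695_at, and 3.74, 3.68 and 3.86 for 1442827_at. Of these, 1418162_at had both of its 16 h arrays, at 4.18 and 4.26, above its other 4. Lbp, whose product hands lipopolysaccharide to CD14, fell by 0.54 ± 0.17 at 8 h and rose by 1.11 ± 0.17 in the late interval. The early call of Lbp was lost with the mean of its probe sets (−0.20) and without any 1 of the untreated or 8 h arrays.

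**Figure D2:**
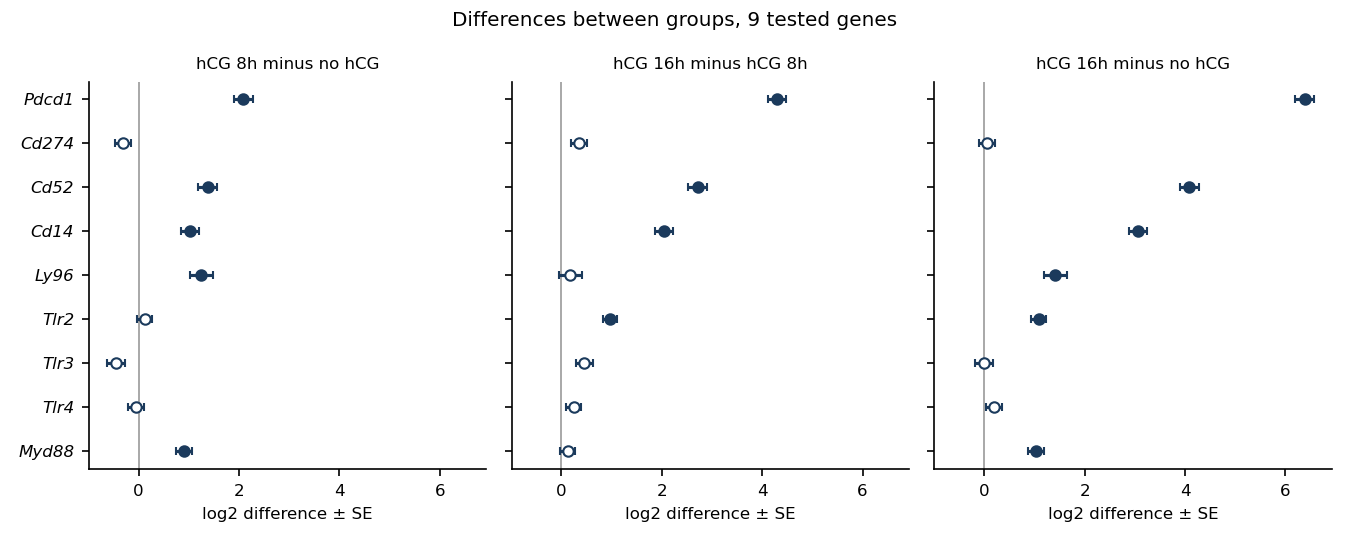
Log2 difference with its SE (horizontal axis) for the 9 tested genes in 3 comparisons, with filled points for genes called by limma and open points for the others. Pdcd1, Cd52 and Cd14 are filled in every panel, Ly96 and Myd88 in both comparisons with the untreated group, and Tlr2 in both comparisons that include 16 h.

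Tlr2, the gene of the receptor for bacterial lipopeptides (1419132_at), was late. It read 5.96 and 5.95 without hCG, 6.11 and 6.03 at 8 h, and 7.02 and 7.06 at 16 h. The 8 h arrays lay just above the untreated ones, and the 16 h arrays well above both. Its difference was 0.12 (95% interval −0.21 to 0.45) in the early interval, not called, 0.97 ± 0.15 in the late interval (1.95-fold) and 1.08 ± 0.15 over the whole course (2.12-fold).

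Tlr3, the gene of the receptor for double-stranded RNA, by its bright probe set 1422782_s_at, read 6.73 and 6.74 without hCG, 6.16 and 6.39 at 8 h, and 6.92 and 6.55 at 16 h. The 8 h arrays were the lowest, and the 16 h arrays lay on both sides of the untreated ones. Its differences were −0.46 (95% interval −0.85 to −0.063), 0.46 (0.062 to 0.85) and −0.0011 (−0.40 to 0.39) in the same order, and none was called after adjustment. The other Tlr3 probe set, 1422781_at, was dim at group means of 4.23, 4.23 and 4.32.

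Among 16 other Toll-like receptors and accessory genes, 15 had a named probe set and 11 were tested. At 8 h, limma called 0 higher and 1 lower (1 and 2 at an unadjusted p under 0.05), with a median difference of −0.012, and the gene called was Lbp. The late interval had 2 called higher and 1 lower (median 0.10). Besides Lbp, Unc93b1, whose product escorts the receptors of endosomes, rose by 0.83 ± 0.20, and Cd36, the gene of a scavenger receptor that works with TLR2, fell by 1.27 ± 0.19. Over the whole course 2 were called higher and 2 lower (median 0.054), with the single-stranded RNA receptor gene Tlr7 up by 0.84 ± 0.17 and Cnpy3, the gene of a receptor chaperone, down: it fell by 0.53 ± 0.15. Unc93b1 lost its call without either 8 h array or hCG 16h replicate 1, and Cnpy3 without no hCG replicate 1 or hCG 16h replicate 2.

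Myd88 (1419272_at), the gene of the adaptor shared by TLR2 and TLR4 but not used by TLR3, was higher by 8 h. It read 8.73 and 8.56 without hCG, 9.55 and 9.55 at 8 h, and 9.74 and 9.61 at 16 h. Both hCG groups stood clear of the untreated arrays, and the 16 h arrays were only just above those of 8 h. The difference was 0.91 ± 0.15 in the early interval (1.87-fold), 0.13 (95% interval −0.22 to 0.47) in the late interval, not called, and 1.03 ± 0.15 over the whole course (2.05-fold).

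The genes that act beside and after MyD88 were read from a list of 23, of which 18 were tested. At 8 h, 8 were called higher and 1 lower (median 0.40). Irak2, a kinase of the MyD88 complex, rose by 1.28 ± 0.16, Tollip, which restrains that complex, by 0.76 ± 0.15, the ubiquitin ligase gene Traf6 by 0.70 ± 0.22 and the bridging adaptor gene Tirap by 0.53 ± 0.15. Map3k7, the gene of the kinase TAK1 that acts after TRAF6, fell by 0.99 ± 0.15. In the late interval 2 were called higher and 2 lower (median 0.11). Irf7, an interferon-inducible transcription factor gene, rose by 2.39 ± 0.29 and the kinase gene Ikbkb by 0.56 ± 0.16, while Map3k7 fell by a further 0.68 ± 0.15 and the ubiquitin ligase gene Peli1 by 0.65 ± 0.17. Over the whole course 10 were called higher and 1 lower (median 0.57). Single arrays weighed heavily on the early count: 2 genes, Irak2 and Tollip, were called higher without hCG 8h replicate 1, 3 without no hCG replicate 1 and 5 without hCG 8h replicate 2. The count of 10 became 5 without hCG 16h replicate 1. With the mean of a gene's probe sets Map3k7 differed by −0.19 at 8 h and was not called, and Traf6 lost its early call there and without a dim limit. The same mean gave late differences of −0.29 for Map3k7, −0.27 for Peli1 and 0.28 for Ikbkb, none of them called. In the late interval the call of Irf7 alone among these 4 held with any single array left out.

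Of 9 tested genes of NF-kappa-B subunits and inhibitors, 5 were called higher and 1 lower at 8 h (median 0.82). The co-activator gene Bcl3 rose by 2.61 ± 0.20, and the genes of the subunits RelB and p100, Relb and Nfkb2, rose by 1.13 ± 0.18 and 1.04 ± 0.15. Nfkbiz fell by 0.64 ± 0.19. The late interval had 2 called higher and 1 lower (median 0.15): Relb rose by 0.81 ± 0.18 and Nfkb2 by 0.80 ± 0.15, and Tnfaip3, the gene of an enzyme that ends the signal, fell by 1.21 ± 0.22. Over the whole course 4 were called higher and 1 lower (median 0.41). Without hCG 8h replicate 1, 3 were called higher in the early interval, and without hCG 8h replicate 2, 0 in the late one and 0 lower in the early one. Nfkbiz also lost its call without no hCG replicate 1 or when its probe sets were averaged, and Tnfaip3 its late call without hCG 16h replicate 1. Relb lost its late call without hCG 8h replicate 1 as well, at a difference of 0.87, and without hCG 16h replicate 1, at 0.65.

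Inflammatory outputs of Toll-like receptors were called in both directions. Of 14 tested genes, 3 were called higher and 2 lower at 8 h, where 16.9% of all genes were called higher and 20.5% lower. The median of the list was 0.017. The prostaglandin synthase gene Ptgs2 rose by 6.24 ± 0.17, the pentraxin gene Ptx3 by 5.98 ± 0.22 and Il6 by 3.48 ± 0.21, while the chemokine gene Cxcl1 fell by 1.38 ± 0.21 and the nitric oxide synthase gene Nos2 by 0.67 ± 0.18. Ptgs2 and Ptx3 are also known as genes of cumulus expansion, and Ptx3 stood on the granulosa and cumulus list as well. The difference of Tnf, a textbook output of MyD88, was 0.030 ± 0.18 and was not called. In the late interval 3 were called higher and 2 lower (median 0.027): the acute-phase gene Saa3 rose by 4.21 ± 0.20, the chemokine gene Cxcl2 by 1.75 ± 0.24 and Ptgs2 by a further 1.01 ± 0.17, while Ptx3 fell by 1.13 ± 0.22 and Il6 by 1.12 ± 0.21. Over the whole course 5 were called higher and 2 lower (median 0.068). With single arrays left out, Nos2 lost its early call without either 8 h array and Ptx3 its late call without hCG 8h replicate 2 or hCG 16h replicate 1.

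**Figure D3:**
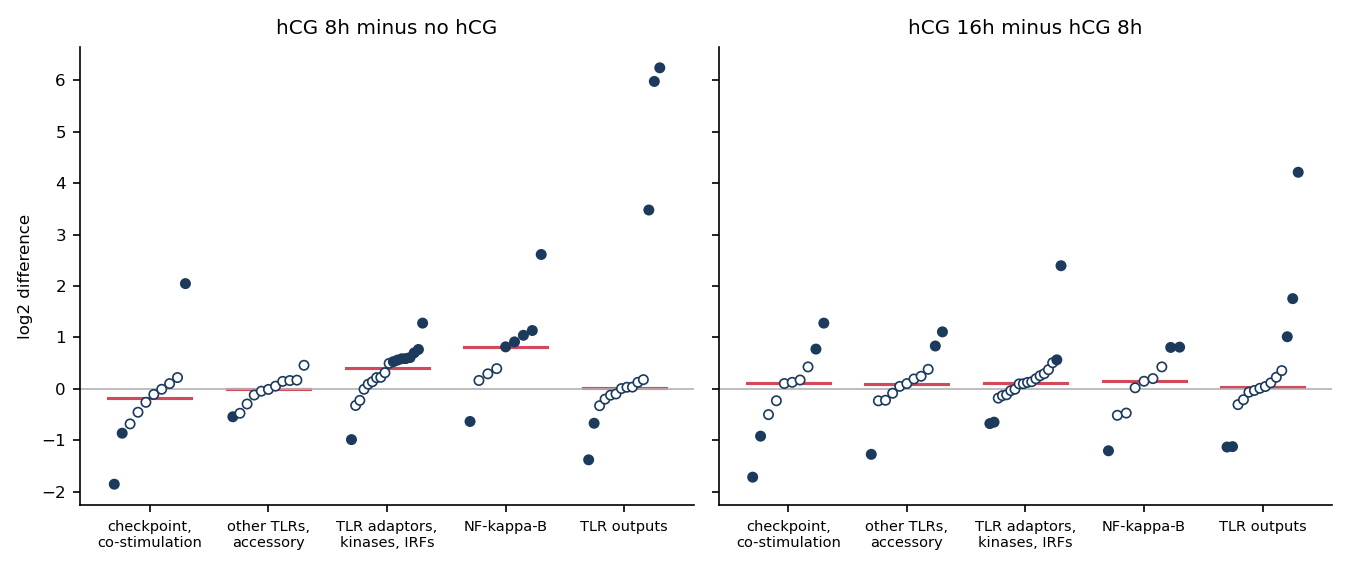
Log2 difference (vertical axis) of each tested gene on 5 pathway lists, at 8 h against no hCG (left) and from 8 h to 16 h (right), with filled points for genes called by limma, open points for the others and red bars for list medians. At 8 h the adaptor and kinase list and the NF-kappa-B list have medians of 0.40 and 0.82, and the medians of the other 3 lists lie between −0.19 and 0.017.

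Markers of leukocytes were called higher mostly in the late interval. Over 6 leukocyte lists, 34 of 51 genes were tested. In the early interval 1 was called higher and 2 lower, with a median of −0.041. The gene called higher was Csf1r, the macrophage growth factor receptor gene, by 1.36 ± 0.19, and its other 2 probe sets gave 0.31 and 0.091 and were not called. Those called lower were the B cell gene Ms4a1 (−2.28 ± 0.16) and the class II gene H2-Ab1 (−0.68 ± 0.19), which lost its call without either 8 h array or no hCG replicate 2. In the late interval 21 were called higher and 0 lower (21 and 0 at an unadjusted p under 0.05 in limma), with a median of 1.01 and a highest value of 3.32 for the lysozyme gene Lyz2, an uncertain value because Lyz1 is nearly identical. In that interval Pdcd1, at 4.30, was above every gene of these lists, while Cd52, Cd14 and Tlr2 lay within their range. Between 18 and 21 of the markers were called higher in the late interval with any single array left out, and 10 under the stricter dim filter, which tested fewer. Of the 21, 5 were above the dim limit at 16 h alone (S100a8, Ptprc, Cd53, Coro1a and Itgb2, the last 4 being all the pan-leukocyte genes called), so they entered the test through the group in which they were high. Another 13 of the 51 genes were dim and 4 had no named probe set. The part of leukocyte RNA in the members' values at 8 h or 16 h was not tested.

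By list, the macrophage and monocyte genes had 1 of 11 called higher at 8 h and 10 of 11 from 8 h to 16 h. Their mean levels were 6.10 to 6.27 without hCG, 6.27 to 6.33 at 8 h and 7.69 to 7.79 at 16 h. Another 3 of the 14 on this list, Itgam, Cx3cr1 and Cd163, were dim. Csf1r was among the late calls, and its other probe sets gave late differences of 0.37 and 0.27 and were not called. Pan-leukocyte genes had 4 of 7 called higher from 8 h to 16 h, with means of 6.35 to 6.37, 6.21 to 6.44 and 7.52 to 7.61. Of the dendritic cell and class II genes 4 of 6 were called higher in that interval (6.57 to 6.67, 6.35 to 6.59 and 7.72 to 7.79). All 4 were genes of class II presentation. The list's dendritic cell genes Itgax and Flt3 differed by 0.17 ± 0.15 and −0.043 ± 0.17 there and were not called. Among 3 tested B cell genes, 1 was called higher in that interval (list means 5.95 to 6.29, 5.47 to 5.51 and 5.90 to 5.95). This was Ms4a1, with group means of 7.77, 5.49 and 6.81, so it stayed lower at 16 h than without hCG (−0.96 ± 0.16, called). Its other probe set was dim and differed by 0.36 in the late interval. Of 6 neutrophil genes, 3 were dim in the arrays' mean and 1 had no named probe set, and S100a8 and Csf3r were called higher (list means 5.24 to 5.44, 5.16 to 5.21 and 5.79 to 5.83). Of 12 T and NK cell genes, 5 were dim and 2 had no named probe set, the NK cell genes Nkg7 and Klrb1c among them. For the 5 tested, limma called 0 in each of the 3 comparisons, with 1, 0 and 1 at an unadjusted p under 0.05. The list's means were 6.14 to 6.29, 6.14 to 6.17 and 6.07 to 6.28. The T cell gene Cd3e had group means of 7.96, 7.55 and 7.57 and was among the 5 tested. Ptprc, the gene of the common leukocyte antigen, read 4.95 and 5.33 without hCG, 4.90 and 5.55 at 8 h, and 7.64 and 7.98 at 16 h. Adgre1, the macrophage gene, read 6.47 and 6.48, then 6.65 and 6.58, then 7.89 and 8.05. The untreated and 8 h arrays overlapped for Ptprc and lay close together for Adgre1, with those of 8 h slightly higher, and the 16 h arrays stood above both.

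**Figure D4:**
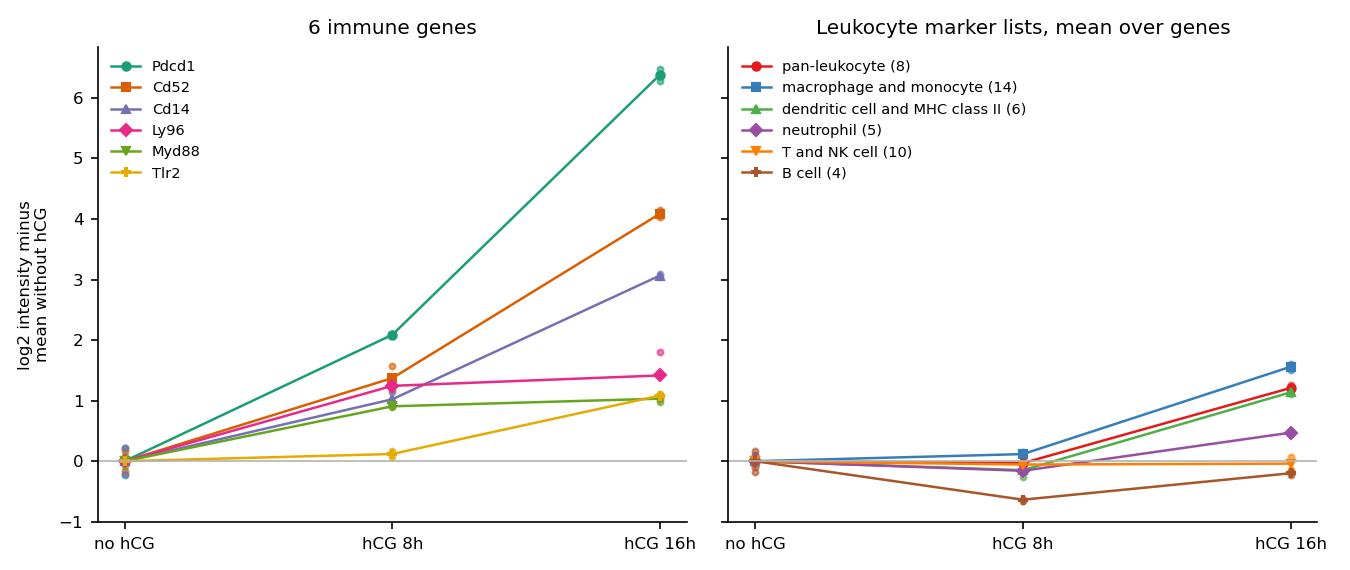
Log2 intensity minus its mean without hCG (vertical axis) for the 6 genes called in any comparison (left) and for the mean over the genes of 6 leukocyte marker lists (right), with small dots for arrays, large symbols for group means and gene numbers in brackets. At 8 h the left panel holds 5 genes between 0.91 and 2.09 and Tlr2 at 0.12. In the right panel the macrophage, pan-leukocyte and class II lists are higher at 16 h.

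Marker genes of other cell types of the complexes and their surroundings were called as well. Of 11 tested oocyte genes, 11 were called lower at 8 h and 11 over the whole course, while 3 were called higher and 5 lower from 8 h to 16 h. The zona pellucida gene Zp3 had means of 12.27, 9.67 and 7.77, and the oocyte growth factor gene Gdf9, called higher in the late interval, 13.24, 11.32 and 12.49. The labelled tissue's granulosa markers were present in every group: the follicle-stimulating hormone receptor gene Fshr had means of 12.21, 11.03 and 8.67 and Foxl2 12.31, 10.42 and 10.17, and of 11 granulosa and cumulus genes 4 were called higher and 5 lower at 8 h and 1 and 5 from 8 h to 16 h. Of 7 oviduct epithelium genes 5 were tested, and of these 2 were called lower at 8 h and 4 higher from 8 h to 16 h. The other 2 were dim, with group means of 5.36, 5.38 and 5.58 for Foxj1 and 4.66, 4.81 and 4.79 for Pax8. The oviduct glycoprotein gene Ovgp1 read 7.90 and 9.58 without hCG, 7.30 and 8.46 at 8 h, and 11.95 and 11.52 at 16 h, so it too was highest where Pdcd1, Cd52, Cd14 and Tlr2 were. The endothelial gene Cdh5 read 5.09 and 5.87, then 8.15 and 8.52, then 8.49 and 8.39, and was called higher at 8 h. The other tested endothelial gene, Kdr, differed by 0.28 ± 0.15 there and was not called, and 4 of 6 were dim. The part of these cells in the members' values was not tested.

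For each gene whose group means spanned at least 1 on the log2 scale, the tested genes nearest in pattern were found by the root mean square, over the 6 arrays, of the difference between centred values. For Pdcd1 the closest were Mbp at 0.62, Sfrp2 at 0.63 and Tnc at 0.66. Cd52 was nearest to the lipase gene Lipg at 0.10, then to S100a16 at 0.21 and Pde5a at 0.22. Cd14 was nearest to the glycogen phosphorylase gene Pygl at 0.16, then to Alox5ap and Mgst2, both at 0.18. Ly96 was nearest to Nucb2 at 0.11, Xpa at 0.12 and Slc37a2 at 0.14. Tlr2 was nearest to Fcer1g at 0.044, which is a gene of the macrophage list, then to Prr36 at 0.048 and Trpm4 at 0.058. Myd88 was nearest to Flot1 at 0.059 and to Fdps and Myo1c, both at 0.063. Distances were not compared between genes of different span.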

How the data were processed

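RNA of 6 mouse cumulus-oocyte pools was hybridised to Affymetrix arrays. The authors deposited log2 values between 3.32 and 15.5, a scale inferred from their range. Which software and normalization made them is not given in the sources used here. Since the range of array medians, 0.125, was under the limit of 0.2, values were used as deposited. Of 45101 probe sets, 64 controls were left out. The platform's annotation gave 34945 1 symbol, 932 several and 9160 none, and 34741 matched a RefSeq gene number. A gene was read from its brightest probe set. Group means of all 6 arrays were fitted with lmFit and eBayes of limma 3.58.1 (R 4.3.3; 3 residual and 6.43 prior degrees of freedom), with two-sided tests, and checked on simulated data. All adjusted p-values are limma's. The 3 comparisons share arrays.

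The members, the 5 pathway lists and the cell type lists were chosen with earlier results of these data known. Named were every member and genes needed to read a member. From a pathway list, up to 3 highest and 3 lowest called genes were named in a comparison. The defining cell type markers and the 3 genes nearest in pattern were named too. Genes of the cell type lists named beyond these were chosen after their values were seen. Alternatives were quantile normalization, no filter or the 60th percentile as dim limit, the mean of a gene's probe sets, only the groups compared, limma-trend, the replicate number as a block, and each array left out in turn; those for lists and their genes were added after seeing the data.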

Additional observations from a re-analysis of the deposited data

How the results depend on the processing

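The account is limited by 2 arrays per group, the lack of detection calls, an unknown normalization and low values. The means of Cd274, Tlr2, Tlr3 and Tlr4 lay between 5.98 and 6.58, near the dim limit of 5.62. The untreated arrays of Pdcd1, Cd52 and Cd14 lay near this limit too, and Pdcd1lg2 lay under it. Of 333 alternative values of the members' differences, 325 kept their direction and call, and the other 8, not called in either fit, changed sign. With quantile normalization it was Tlr3 over the whole course (0.038). With 1 array left out it was Cd274 over the whole course (−0.053 to 0.16, below 0 without no hCG replicate 2 or hCG 16h replicate 1), Ly96 in the late interval (−0.22 to 0.56, below 0 without hCG 16h replicate 1), Tlr3 over the whole course (−0.18 to 0.18, above 0 without no hCG replicate 2 or hCG 16h replicate 2) and Tlr4 in the early interval (−0.12 to 0.024, above 0 without no hCG replicate 1 or hCG 8h replicate 1). The cause was not tested. The filter at the 60th percentile left Cd274, Tlr2, Tlr3 and Tlr4 untested, and the mean of a gene's probe sets Tlr3 and Tlr4.

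Leaving out each array in turn moved the genes called in the late interval between 1482 and 3542 and the probe sets between 2518 and 6340, and the probe sets called in the early interval between 6109 and 9450. Members called stayed at 5, 4 and 6 there. The late genes fell to 1482 without hCG 8h replicate 1, 1640 without hCG 8h replicate 2, 1577 without hCG 16h replicate 1 and 1641 without hCG 16h replicate 2. For pathway and marker genes the same alternatives were added after seeing the data: of 1009 values of named genes 921 kept their call and 88 lost it, with no change of sign. The labels number the replicates 1 and 2 in each group, and the main fit did not take the numbers as pairs. The deviations of same-numbered arrays correlated at 0.468 between no hCG and 8 h. They correlated at 0.0010 between no hCG and 16 h and at 0.135 between 8 h and 16 h. Whether same-numbered arrays without hCG and at 8 h shared a batch was not tested. With the replicate block, 5512, 3264 and 6110 genes and 5, 4 and 6 members were called in the early interval, the late interval and over the whole course.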
